A study of Mus musculus with 33 samples.

Results

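Transcripts of 9 subunits of Polycomb repressive complex 1 (PRC1) were followed through the reprogramming of mouse fibroblasts: Cbx2, Cbx6, Cbx7, Cbx8, Phc1, Pcgf6, Rnf2, Rybp and Kdm2b. The genes are canonical and variant PRC1 subunits and were chosen with earlier results of these data known. Each symbol matched 1 of the 37583 Ensembl gene IDs counted. Counts and medians of the 9 subunits are therefore set beside those of all genes as a description only. Poly-A RNA was sequenced from 33 libraries in 11 groups of 3. The reprogramming cells were taken on days 3, 6, 9 and 12 and at the iPS stage and sorted into SSEA1+ and SSEA1- fractions, and mouse embryonic fibroblasts (MEFs), the starting cells, made up the last group. SSEA1 is a carbohydrate surface antigen of mouse pluripotent cells, here used to sort the cells by flow cytometry. All cells had the 129SV/Jae/C57BL6J background. MEFs were kept in MEF medium and the reprogramming cells in ES medium with dox (doxycycline) and AA (ascorbic acid), so that medium and drug separate all 10 reprogramming groups from the MEFs and their effects cannot be told apart from that of stage. The sources used here do not name the transgene that doxycycline acts on. Since nothing in the labels ties replicates to different cultures or animals, the p-values speak of the spread among these libraries alone, which may be technical.

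PRC1 is a histone ubiquitin ligase that places ubiquitin on histone H2A and keeps developmental genes silent. Its catalytic core pairs Rnf2 (RING1B) or Ring1 with a Pcgf protein. In canonical PRC1 the core carries a Cbx protein, which reads trimethylated lysine 27 of histone H3, and a Phc protein, which polymerises and compacts chromatin, whereas in variant PRC1 Rybp or Yaf2 takes the place of the Cbx protein. In mouse embryonic stem cells Cbx7 is known as the main Cbx subunit, and Cbx2 and Cbx8 are known to be used more in differentiated cells.

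The promoters of 7 of the 9 subunits were matched in RefSeq (build GRCm38.p6). Those of the 2 Cbx genes that were lower in the SSEA1+ iPS fraction than in MEFs, Cbx6 and Cbx8, and of the 2 subunits with the largest increases there, Cbx7 and Phc1, are printed here. Each is the 250 bases before the annotated start, 5′ to 3′ on the minus strand, on which all 4 genes lie. Capitals mark CACGTG, the E-box that MGA and MAX, partners of Pcgf6, are known to bind. The windows are chr15:79834334-79834583 for Cbx6, chr11:119040914-119041163 for Cbx8, chr15:79932647-79932896 for Cbx7 and chr6:122340228-122340477 for Phc1.
Cbx6: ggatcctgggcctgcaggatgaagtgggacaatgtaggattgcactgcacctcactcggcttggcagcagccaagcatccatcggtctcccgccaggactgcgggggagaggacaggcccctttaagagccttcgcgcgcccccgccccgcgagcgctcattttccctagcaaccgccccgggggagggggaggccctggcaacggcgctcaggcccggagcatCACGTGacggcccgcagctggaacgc
Cbx8: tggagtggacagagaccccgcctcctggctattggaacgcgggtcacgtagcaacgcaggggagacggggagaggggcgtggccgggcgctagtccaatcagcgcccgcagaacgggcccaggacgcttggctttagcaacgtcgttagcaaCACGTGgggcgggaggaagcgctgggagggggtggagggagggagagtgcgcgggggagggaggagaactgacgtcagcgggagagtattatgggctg
Cbx7: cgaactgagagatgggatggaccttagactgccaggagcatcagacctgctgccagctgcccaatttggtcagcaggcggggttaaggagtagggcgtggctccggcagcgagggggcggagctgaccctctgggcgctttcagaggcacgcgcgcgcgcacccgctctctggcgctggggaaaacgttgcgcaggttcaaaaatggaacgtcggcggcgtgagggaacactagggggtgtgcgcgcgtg
Phc1: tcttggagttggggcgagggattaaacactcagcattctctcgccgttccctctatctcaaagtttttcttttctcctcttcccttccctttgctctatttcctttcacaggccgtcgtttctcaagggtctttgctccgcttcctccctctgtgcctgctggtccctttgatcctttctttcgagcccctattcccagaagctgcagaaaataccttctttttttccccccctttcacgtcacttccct

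The E-box, which reads the same on both strands, began 26 bases before the start in Cbx6 and 98 bases before it in Cbx8, and was not found in the windows of the other 5 matched subunits. Of 32851 promoters of the same length, 6.02% held it. Neither the Pou5f1 octamer ATGCAAAT (1.6% of all promoters) nor the E2F site TTCCCGC (3.82%), each searched on both strands, was found in any window of the 7 matched subunits. Kdm2b has several annotated starts, and the window of each was searched. The 3 Cbx promoters were rich in CpG, with 20 CpG in Cbx6, 22 in Cbx8 and 23 in Cbx7, against a median of 6 over all promoters. The Phc1 promoter had 8 CpG and a GC content of 49.6%, close to the median of 52.4%.

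Libraries held 8.93 M to 41.69 M counts in genes (median 23.15 M), and the limit that a count of 0 allows, 3 counts, was 0.072 to 0.336 CPM (counts scaled to a common library total). All 9 subunits passed the filter on low counts and stood among the 17326 genes tested. Levels are given as CPM scaled by TMM, a normalisation that sets aside the most extreme genes. A subunit is called higher or lower where edgeR's quasi-likelihood test gave a Benjamini-Hochberg adjusted p under 0.05 over all tested genes and the fold change was at least 2, and the adjusted p-values below are from that test. The labelled cell types carried their markers: 10 fibroblast genes, among them Col1a1 and Postn, had a mean level of 1.85 to 3.60 on the log2(CPM + 1) scale in SSEA1+ iPS libraries, against 11.09 to 11.24 in MEFs, and 10 pluripotency genes, among them Nanog and Esrrb, summed to 4700 to 6750 CPM in SSEA1+ iPS libraries, against 1.81 to 3.6 CPM in MEFs. Library differences touch the results below. Replicate 3 of the SSEA1- iPS fraction stood apart, with a mean pluripotency marker level of 7.54 on the log2(CPM + 1) scale, against 3.77 and 5.09 in replicates 1 and 2. The 7 macrophage genes summed to 6.99 to 102 CPM in SSEA1+ libraries, 9.01 to 525 CPM in SSEA1- libraries and 4.18 to 149 CPM in MEFs. Replicate 2 had the highest mean level in MEFs, in each SSEA1- group and, at lower levels, in each SSEA1+ group. In such bulk samples, fewer cells of a type and less RNA per cell cannot be told apart.

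By the iPS stage 8 of the 9 subunits differed from MEFs in the SSEA1+ cells. Cbx7, Phc1, Pcgf6, Cbx2, Kdm2b and Rybp were higher, Cbx6 and Cbx8 were lower, and the ligase Rnf2 missed the 2-fold minimum. Over all tested genes 50.5% were called in that comparison, with 27.9% higher and 22.5% lower. The median log2 fold change of the 9 subunits was 1.21, against 0.22 for all tested genes. At earlier stages, 4 subunits were called in SSEA1+ cells against MEFs at day 3 (32.3% of all genes), 4 at day 6 (33.5%), 4 at day 9 (38.6%) and 5 at day 12 (46.6%). The share called higher was 15.6%, 16.9%, 20.6% and 26.5% of all genes in that order, and 20.2% were called lower at day 12. Cbx2, Cbx7, Phc1 and Pcgf6 were the 4 at each of days 3, 6 and 9, and Cbx8 joined them at day 12. All MEF comparisons share the same 3 MEF libraries.

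SSEA1- cells differed from MEFs in 2 subunits, Cbx7 and Pcgf6, both higher at every stage. With the trend of fold change on GC content removed, Cbx2 was called as well at day 3 (1.63 instead of 0.88, adjusted p = 2.8e-06) and day 6 (1.47 instead of 0.92, adjusted p = 9.4e-06). The share of all genes called in these comparisons was 30.2% at day 3, 28.2% at day 6, 26.6% at day 9, 28.1% at day 12 and 26.8% at the iPS stage, and the share called higher was 15.3%, 15.8%, 14.9%, 17% and 19.1% in that order. The median log2 fold change of the 9 subunits in SSEA1- cells against MEFs lay between 0.04 and 0.31, against 0.07 to 0.19 for all genes.

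The sort separated more subunits at each later stage up to day 12, and more genes of any kind. Between SSEA1+ and SSEA1- cells, 2 subunits were called at day 3 (6.67% of all genes), 3 at day 6 (16.4%), 4 at day 9 (25.2%), 6 at day 12 (35.9%) and 6 at the iPS stage (37.4%). All of these were higher in SSEA1+ cells except Cbx8, which was lower at day 12 and at the iPS stage. The share of all genes called higher in SSEA1+ cells was 2.76%, 6.31%, 11.5%, 18% and 16% in stage order, and the share called lower was 18% at day 12 and 21.3% at the iPS stage. At day 12 the fractions did not overlap in any of the 9 subunits, as was the case for 62.3% of all genes. The median log2 fold change of the 9 subunits was 0.54, 0.80, 0.90, 1.06 and 1.11 in stage order, while that of all genes stayed between -0.03 and 0.06.

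**Figure D1:**
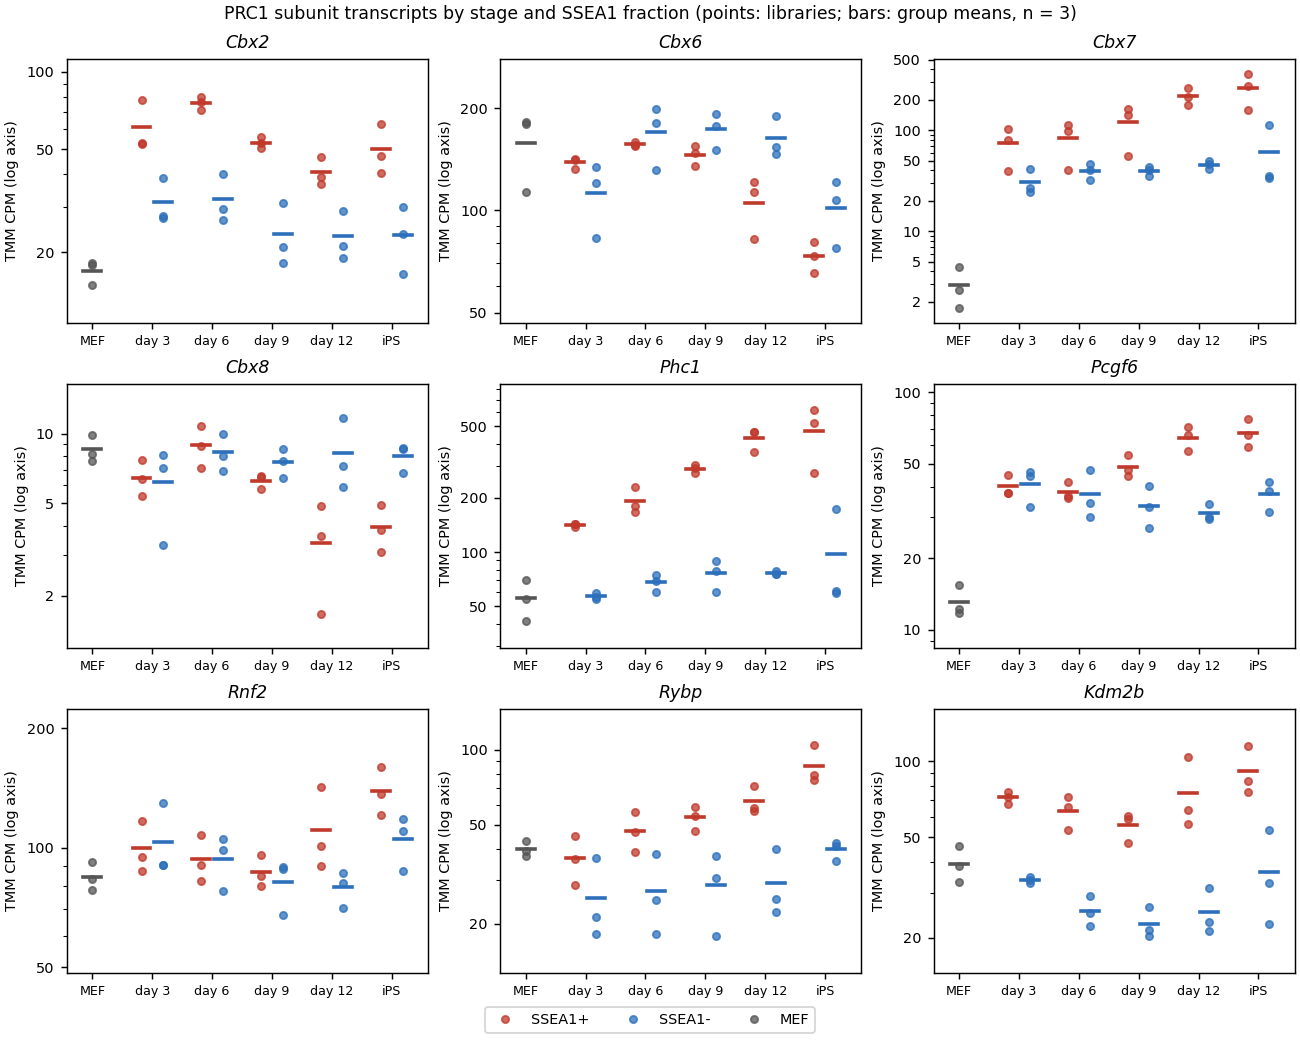
TMM-scaled CPM of the 9 subunits on logarithmic axes in MEFs and in SSEA1+ and SSEA1- cells of each stage; points are libraries and bars are group means (n = 3). Phc1 separates the fractions from day 3 on, with 138 to 144 CPM in SSEA1+ and 54.9 to 59.2 CPM in SSEA1- cells, and Cbx7 stands at 1.74 to 4.45 CPM in MEFs and above that in every other group.

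Cbx7, the chromobox subunit that reads methylated histone H3 in embryonic stem cells, showed the largest increase of the 9. It had 159, 362 and 274 CPM in the SSEA1+ iPS libraries, 35.5, 33.5 and 113 CPM in the SSEA1- iPS libraries, and 1.74, 2.6 and 4.45 CPM in the MEF libraries. Every reprogramming library stood above every MEF library, and the iPS fractions did not overlap. Against MEFs, the log2 fold change in SSEA1+ cells was 4.73 ± 0.55 at day 3, 4.89 ± 0.55 at day 6, 5.42 ± 0.56 at day 9, 6.28 ± 0.58 at day 12 and 6.56 ± 0.59 at the iPS stage (SE, adjusted p = 2e-07 at day 3 and 7.5e-10 at the iPS stage).

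SSEA1- cells also held more Cbx7 than MEFs, from day 3 on. Their log2 fold change over MEFs was 3.47 ± 0.53 at day 3 (adjusted p = 1.2e-05) and 4.44 ± 0.54 at the iPS stage (adjusted p = 1.4e-06). At day 3 the levels were 39.3, 80.7 and 103 CPM in SSEA1+ cells and 27.1, 24.7 and 41.4 CPM in SSEA1- cells, so the fractions overlapped by their lowest SSEA1+ library. The sort difference was 1.25 ± 0.45 at day 3 (adjusted p = 0.068) and 1.08 ± 0.45 at day 6 (adjusted p = 0.076), neither called. With the replicate number as a block the day 3 difference was 1.17 with an adjusted p of 0.011 and was called, but with the block and the GC trend removed it was 0.80 (adjusted p = 0.095) and was not.

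From day 9 Cbx7 was called higher in SSEA1+ cells. The libraries held 176, 263 and 215 CPM in SSEA1+ cells and 41.3, 46.5 and 49.1 CPM in SSEA1- cells at day 12, with a wide gap between the fractions. The log2 difference was 1.60 ± 0.46 at day 9 (adjusted p = 0.0074), 2.26 ± 0.46 at day 12 (adjusted p = 0.0003) and 2.12 ± 0.46 at the iPS stage (adjusted p = 0.00051). The day 9 call was lost without SSEA1+ replicate 3 (1.29, adjusted p = 0.05), and without replicate 3 of the SSEA1- iPS fraction the iPS difference was 2.92. Cbx7 overlaps Apobec3, a cytidine deaminase gene on the opposite strand, and because the counting is not stated to use strand the reads of the 2 genes cannot be told apart where they overlap. Apobec3 itself had 242, 290 and 283 CPM in SSEA1+ iPS cells, 28.4, 44.5 and 123 CPM in SSEA1- iPS cells, and 35.4, 29.2 and 29.6 CPM in MEFs. At day 3, Apobec3 had 76.8, 76.0 and 87.5 CPM in SSEA1+ cells and 78.7, 79.0 and 83.2 CPM in SSEA1- cells, and its part in the Cbx7 counts was not tested.

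Cbx2, a chromobox subunit known to compact chromatin, had its highest mean level in the SSEA1+ cells of day 6. Its SSEA1+ libraries had 52.4, 52.9 and 77.7 CPM at day 3, 76.2, 71.0 and 80.0 CPM at day 6, 50.7, 52.9 and 55.8 CPM at day 9, 46.8, 36.8 and 39.0 CPM at day 12 and 40.6, 47.3 and 62.6 CPM at the iPS stage. MEFs had 18.1, 14.9 and 17.8 CPM, below every SSEA1+ library. Its log2 fold change over MEFs was 2.16 ± 0.25 at day 6 (adjusted p = 1e-07), the highest of the 5 stages, and 1.27 ± 0.24 at day 12 (adjusted p = 6.6e-05), the lowest. The steps between neighbouring stages were not called (day 9 against day 6, -0.51 ± 0.23, adjusted p = 0.48).

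SSEA1- cells had intermediate Cbx2 levels, 26.7, 29.3 and 40.1 CPM at day 6. SSEA1+ cells were higher than SSEA1- cells at day 6 (1.24 ± 0.24, adjusted p = 0.00044), day 9 (1.18 ± 0.24, adjusted p = 0.0004) and the iPS stage (1.11 ± 0.24, adjusted p = 0.00041). Day 3 (0.97 ± 0.23, adjusted p = 0.0088) and day 12 (0.83 ± 0.23, adjusted p = 0.0048) missed the 2-fold minimum although the fractions did not overlap. Cbx2 transcripts have 59.1% GC, against a median of 48.8% for all genes. With the trend of fold change on GC content removed, the sort difference was 0.83 at day 6, 0.70 at day 9 and 0.61 at the iPS stage, all below 2-fold, and 0.50 at day 3 (adjusted p = 0.13) and 0.43 at day 12 (adjusted p = 0.091). The iPS difference also fell below 2-fold with no filter on low counts (0.96) and with the compared groups only (0.95). It did so too without SSEA1- replicate 2 (0.90) or SSEA1+ replicate 3 (0.85).

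Cbx8 and Cbx6, 2 further chromobox subunits, went the other way late in the course. Cbx8 was scarce throughout, with 3.08, 3.84 and 4.93 CPM in SSEA1+ iPS cells, 8.64, 6.75 and 8.6 CPM in SSEA1- iPS cells and 8.14, 9.86 and 7.65 CPM in MEFs. SSEA1+ iPS libraries stood below all libraries of the other 2 groups. Cbx8 fell by 1.11 ± 0.34 on the log2 scale in SSEA1+ iPS cells against MEFs (adjusted p = 0.0063) and by 1.34 ± 0.34 in SSEA1+ day 12 cells against MEFs (adjusted p = 0.0016). Against SSEA1- cells it was lower at day 12 (-1.29 ± 0.34, adjusted p = 0.0028) and at the iPS stage (-1.02 ± 0.34, adjusted p = 0.015). The day 12 libraries held 1.67, 3.61 and 4.85 CPM in SSEA1+ cells and 5.86, 7.26 and 11.7 CPM in SSEA1- cells, and the day 12 difference fell short of 2-fold without SSEA1+ replicate 1 (-0.97) or without SSEA1- replicate 3 (-0.96). The iPS difference did so without SSEA1+ replicate 1 (-0.93) or SSEA1- replicate 3 (-0.98).

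Cbx6 had 65.4, 80.9 and 73.3 CPM in SSEA1+ iPS cells, 77.4, 107 and 121 CPM in SSEA1- iPS cells and 180, 113 and 182 CPM in MEFs. All SSEA1+ iPS libraries stood below the MEF libraries, while the iPS fractions overlapped. Cbx6 fell by 1.11 ± 0.21 on the log2 scale in SSEA1+ iPS cells against MEFs (adjusted p = 4.5e-05). At day 12 the value against MEFs was -0.59 ± 0.20 (adjusted p = 0.015) and that against SSEA1- cells -0.64 ± 0.20 (adjusted p = 0.011), both under 2-fold. With the GC trend removed the sort difference was -1.18 at day 12 and -1.14 at the iPS stage, and both were then called. Cbx6 overlaps Npcd on the same strand, a gene with 0 counts in all 33 libraries.

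**Figure D2:**
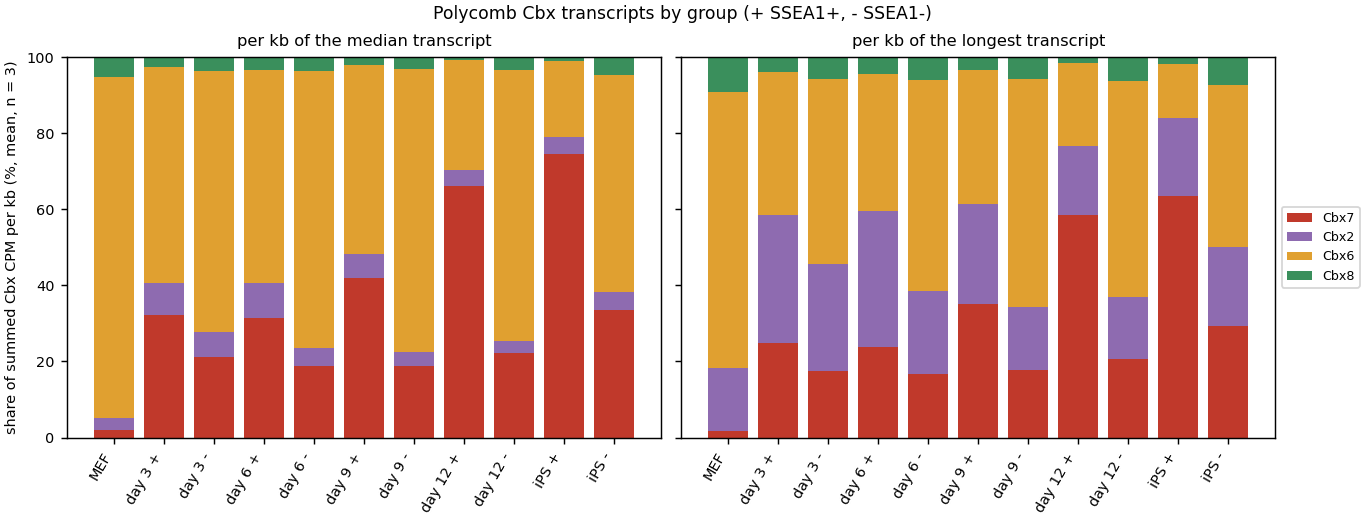
Stacked bars give the mean share (%, n = 3) of Cbx2, Cbx6, Cbx7 and Cbx8 in their summed CPM per kb, from MEFs through SSEA1+ (+) and SSEA1- (-) cells of each stage, with lengths from the median annotated transcript on the left and from the longest on the right. The Cbx7 share is 74.4% or 63.6% in SSEA1+ iPS cells and 1.88% or 1.78% in MEFs, by median or longest length.

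Cbx6 and Cbx7 both lie on chromosome 15, and their values against MEFs in SSEA1+ iPS cells had opposite signs; Cbx2 and Cbx8, both on chromosome 11, differed in sign likewise. Per length, Cbx6 had the largest share in MEFs and Cbx7 the largest in SSEA1+ iPS cells. Of the summed CPM per kb of Cbx2, Cbx6, Cbx7 and Cbx8, by median transcript length, Cbx7 made up 74.4% ± 5.96 in SSEA1+ iPS cells, 33.4% ± 12.6 in SSEA1- iPS cells and 1.88% ± 0.787 in MEFs (SD, n = 3). The Cbx6 share was 19.9% ± 4.84 in SSEA1+ iPS cells, 57.2% ± 11.2 in SSEA1- iPS cells and 89.6% ± 2.83 in MEFs. Cbx7 outweighed Cbx6 in the SSEA1+ cells of day 12 (66.2% ± 3.1 against 28.9% ± 2.76) but not in those of day 3 (32.1% ± 9.2 against 56.8% ± 8.74). In SSEA1- cells Cbx6 had the larger mean share at each stage by this measure, but in replicate 3 of the iPS stage, the library with the high pluripotency markers, Cbx7 had 159 CPM per kb and Cbx6 had 154. Annotated lengths of both genes vary widely. With the longest transcript the Cbx7 share was 63.6% ± 7.39 in SSEA1+ iPS cells and 1.78% ± 0.744 in MEFs. The Cbx6 share was then 14.4% ± 3.17 in SSEA1+ iPS cells and 72.7% ± 4.98 in MEFs. By that length the mean share of Cbx2 in SSEA1+ iPS cells, 20.3% ± 4.67, was above that of Cbx6, and it was 16.4% ± 1.59 in MEFs.

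Phc1, the Polyhomeotic subunit best known from pluripotent cells, separated the fractions most clearly. It had 144, 138 and 144 CPM in SSEA1+ cells and 56.6, 54.9 and 59.2 CPM in SSEA1- cells at day 3. At day 12 it had 462, 463 and 357 CPM in SSEA1+ cells and 75.2, 76.0 and 78.6 CPM in SSEA1- cells. MEFs had 69.6, 41.3 and 55.1 CPM, and at these stages every SSEA1+ library stood above all SSEA1- and MEF libraries. The log2 difference of SSEA1+ from SSEA1- cells was 1.32 ± 0.30 at day 3 (adjusted p = 0.0058), 1.51 ± 0.30 at day 6, 1.93 ± 0.30 at day 9, 2.48 ± 0.31 at day 12 (adjusted p = 1.1e-06) and 2.26 ± 0.31 at the iPS stage, called each time.

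Against MEFs, Phc1 in SSEA1+ cells was higher by 1.36 ± 0.30 at day 3 (adjusted p = 0.0006), 1.80 ± 0.30 at day 6, 2.39 ± 0.31 at day 9, 2.95 ± 0.32 at day 12 and 3.08 ± 0.32 at the iPS stage (adjusted p = 8.4e-09). In SSEA1- cells it was within 0.04 ± 0.30 of MEFs at day 3 (adjusted p = 0.95). At the iPS stage SSEA1- cells had 60.8, 59.3 and 174 CPM, the last in the replicate with the high pluripotency markers. Their difference from MEFs was 0.82 ± 0.30 (adjusted p = 0.031), and the sort difference was 2.95 without that library. The libraries held 274, 523 and 611 CPM in SSEA1+ iPS cells.

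**Figure D3:**
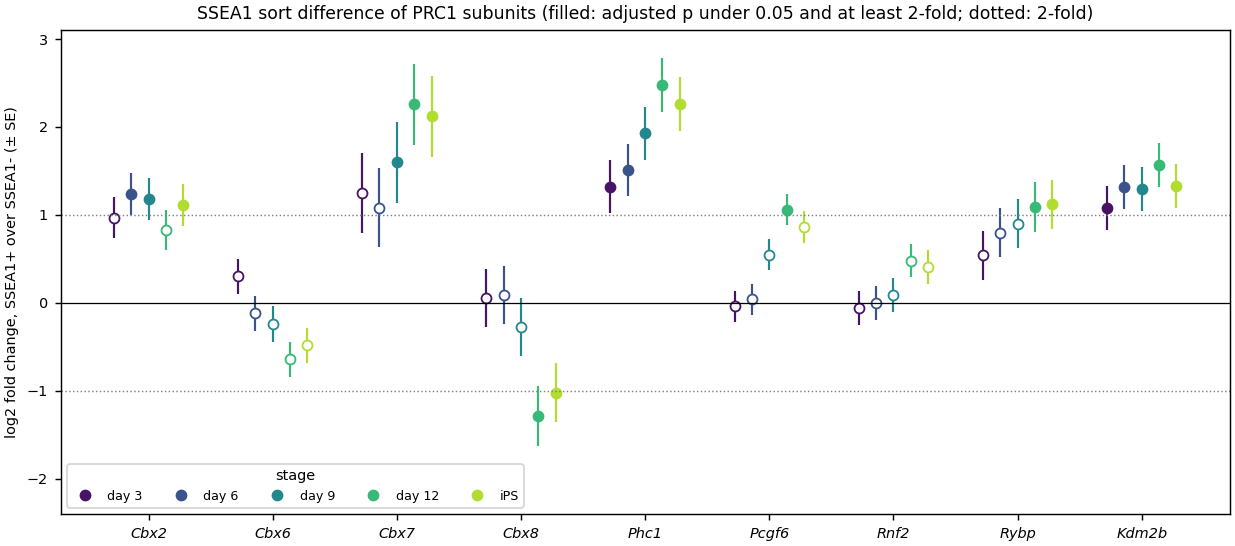
Log2 fold change of SSEA1+ over SSEA1- cells with its SE for the 9 subunits, by stage in colour; filled points passed an adjusted p of 0.05 and 2-fold (dotted lines), and open points did not. Phc1 and Kdm2b are filled at all 5 stages, and Cbx8 is the one subunit with filled points below 0.

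Kdm2b, the histone demethylase whose zinc finger brings variant PRC1 to unmethylated CpG islands, was the other subunit called at all 5 stages of the sort. At day 3 it had 72.3, 68.0 and 75.3 CPM in SSEA1+ cells and 34.8, 33.1 and 33.9 CPM in SSEA1- cells, and at day 9 it had 47.4, 59.2 and 60.6 CPM in SSEA1+ cells and 21.4, 20.4 and 26.4 CPM in SSEA1- cells. The fractions did not overlap at either stage. The log2 difference was 1.08 ± 0.25 at day 3 (adjusted p = 0.0062), 1.32 ± 0.25 at day 6, 1.30 ± 0.25 at day 9, 1.57 ± 0.25 at day 12 (adjusted p = 2e-05) and 1.33 ± 0.25 at the iPS stage.

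MEFs had 46.3, 33.2 and 38.5 CPM of Kdm2b, with a mean below that of SSEA1+ cells and above that of SSEA1- cells at every stage. The values against MEFs were of both signs: SSEA1+ cells stood at 0.87 ± 0.25 at day 3 (adjusted p = 0.0055) and were called higher at the iPS stage alone (1.21 ± 0.25, adjusted p = 0.00016), and SSEA1- cells stood at -0.63, -0.79 and -0.64 at days 6, 9 and 12 (adjusted p = 0.044, 0.014 and 0.041), short of 2-fold. The iPS call was lost without SSEA1+ replicate 3 (0.95). With the GC trend removed, the day 3 sort difference was 0.96 and no longer called. Kdm2b shares sequence with Rnf34 on the opposite strand, which had 36.2 to 37.8 CPM in SSEA1+ and 39.2 to 42.7 CPM in SSEA1- cells at day 3.

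Rybp, which in variant PRC1 stimulates H2A ubiquitination, was called between the fractions from day 12. At day 3 the libraries had 45.1, 28.7 and 36.5 CPM in SSEA1+ cells and 36.7, 21.2 and 18.1 CPM in SSEA1- cells, with overlap. At the iPS stage they had 75.7, 78.9 and 104 CPM in SSEA1+ cells, 41.1, 35.7 and 42.3 CPM in SSEA1- cells, and 42.9, 39.2 and 37.2 CPM in MEFs. SSEA1+ iPS cells then stood above both other groups, which covered the same range. The sort difference was 0.54 at day 3 (adjusted p = 0.22), 0.80 ± 0.28 at day 6 (adjusted p = 0.036), 0.90 ± 0.28 at day 9 (adjusted p = 0.014), 1.09 ± 0.28 at day 12 (adjusted p = 0.0026) and 1.12 ± 0.28 at the iPS stage (adjusted p = 0.0021), the last 2 called. With the GC trend removed the day 9 difference was 1.01 (adjusted p = 0.0037) and was called too. Against MEFs, SSEA1+ cells were called higher at the iPS stage (1.12 ± 0.29, adjusted p = 0.0014). The day 12 sort call was lost without SSEA1+ replicate 1 (0.98), without SSEA1- replicate 2 (0.93) or without SSEA1- replicate 3 (1.00), and both iPS calls were lost without SSEA1+ replicate 3 (0.90 for the sort and 0.89 against MEFs).

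Pcgf6, the Pcgf protein of the variant complex that holds MGA and L3mbtl2, was higher than in MEFs in both fractions from day 3. At day 3 it had 45.1, 37.7 and 37.9 CPM in SSEA1+ cells, 46.3, 32.8 and 44.7 CPM in SSEA1- cells, and 12.2, 15.5 and 11.8 CPM in MEFs. Every library of either fraction was above every MEF library, and the fractions overlapped. The log2 fold change over MEFs was 1.61 ± 0.19 in SSEA1+ cells (adjusted p = 2.5e-07) and 1.65 ± 0.19 in SSEA1- cells (adjusted p = 3.4e-07) at day 3, and 2.35 ± 0.19 in SSEA1+ cells (adjusted p = 1.9e-10) and 1.5 ± 0.19 in SSEA1- cells (adjusted p = 2.1e-06) at the iPS stage.

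The fractions parted in Pcgf6 late. At day 12 the libraries had 71.3, 66.0 and 56.5 CPM in SSEA1+ cells and 29.9, 33.9 and 29.3 CPM in SSEA1- cells, with no overlap. The sort difference was -0.04 ± 0.18 at day 3 (adjusted p = 0.94), 0.55 ± 0.18 at day 9 (adjusted p = 0.02), 1.06 ± 0.18 at day 12 (adjusted p = 4.9e-05) and 0.86 ± 0.18 at the iPS stage (adjusted p = 0.00042), of which the day 12 value alone passed 2-fold. With the GC trend removed the iPS difference was 1.04 (adjusted p = 5.7e-05) and was called. The day 12 value, without that removal, lay near the 2-fold minimum. It dropped below 2-fold without day 12 SSEA1- replicate 1 (0.99), SSEA1+ replicate 1 (0.98) or SSEA1+ replicate 2 (0.97).

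Rnf2, the RING-type ligase of the catalytic core, differed least. It had 160, 121 and 137 CPM in SSEA1+ iPS cells, 110, 118 and 87.3 CPM in SSEA1- iPS cells and 92.0, 83.5 and 78.3 CPM in MEFs. The SSEA1+ iPS libraries were above the other 2 groups, which overlapped. Against MEFs the SSEA1+ iPS value was 0.72 ± 0.19 (adjusted p = 0.0017), and the sort difference was 0.48 ± 0.19 at day 12 (adjusted p = 0.034) and 0.41 ± 0.19 at the iPS stage (adjusted p = 0.069). No comparison with MEFs or between fractions reached 2-fold for Rnf2. Rnf2 overlaps Trmt1l on the opposite strand, which had 33 to 44.1 CPM in SSEA1+ iPS cells and 42.6 to 46.5 CPM in MEFs.

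Per kb of median transcript, the order of the 9 subunits in SSEA1+ iPS cells was Cbx7 (373 CPM per kb), Rnf2 (171), Phc1 (146), Rybp (127), Cbx6 (93.1), Kdm2b (71.9), Pcgf6 (31.9), Cbx2 (22.0) and Cbx8 (5.01). In MEFs it was Cbx6 (201 CPM per kb), Rnf2 (104), Rybp (58.5), Kdm2b (31.0), Phc1 (17.2), Cbx8 (10.8), Cbx2 (7.41), Pcgf6 (6.24) and Cbx7 (4.13). Cbx7 stood first in the one and last in the other. With the longest transcript the level of Phc1 (111 CPM per kb) exceeded that of Cbx7 (43.7) in SSEA1+ iPS cells, and that of Rnf2 (26.4) exceeded that of Cbx6 (20.1) in MEFs, so the order at the top depends on the isoform assumed.

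No subunit was called at a step between successive SSEA1+ stages. The share of all genes called was 4.46% from day 3 to day 6, 1.08% from day 6 to day 9, 8.82% from day 9 to day 12 and 9.49% from day 12 to the iPS stage. At an unadjusted p under 0.05, edgeR gave 0, 1, 3 and 1 subunits in stage order, and DESeq2 called 0 at each step. The shares above are for edgeR calls. No share of all genes is given at the unadjusted limit, so these counts cannot be judged against one. The largest step of Cbx7 was 0.86 ± 0.45 at day 12 against day 9 (adjusted p = 0.23), that of Phc1 0.59 ± 0.30 at day 9 against day 6 (adjusted p = 0.58), and that of Cbx8 -0.89 ± 0.34 at day 12 against day 9 (adjusted p = 0.088). Cbx8 passed at that last step without SSEA1+ day 12 replicate 3 (-1.25, adjusted p = 0.028).

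The change of the sort difference over time was tested itself. From day 3 to day 12 it was called, at an adjusted p under 0.05 with no fold minimum, for 3 subunits, as for 17.7% of all genes (8.65% upward and 9.06% downward). The difference shifted upward for Pcgf6 (1.09 ± 0.26, adjusted p = 0.0057) and downward for Cbx8 (-1.35 ± 0.48, adjusted p = 0.049) and Cbx6 (-0.94 ± 0.29, adjusted p = 0.026). For Phc1 the shift was 1.16 ± 0.42 (adjusted p = 0.055), and with the replicate number as a block it was 1.17 with an adjusted p of 0.04. The Phc1 shift was called too with RLE factors (adjusted p = 0.049), upper-quartile factors (0.039) and the compared groups only (0.0027). DESeq2's Wald test called it as well (adjusted p = 0.03), but edgeR with the GC trend alone removed did not (0.051). Leaving out single libraries ended the Cbx8 call in 9 of 12 cases and the Cbx6 call in 4 of 12, while that of Pcgf6 was kept in all 12. The Cbx8 call was also lost with no filter on low counts (adjusted p = 0.083) and with the compared groups only (adjusted p = 0.14). From day 12 to the iPS stage edgeR called 0 subunits (1.93% of all genes), with 0 at an unadjusted p under 0.05 and 0 by DESeq2. The 1.93% is for the adjusted limit by edgeR.

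**Figure D4:**
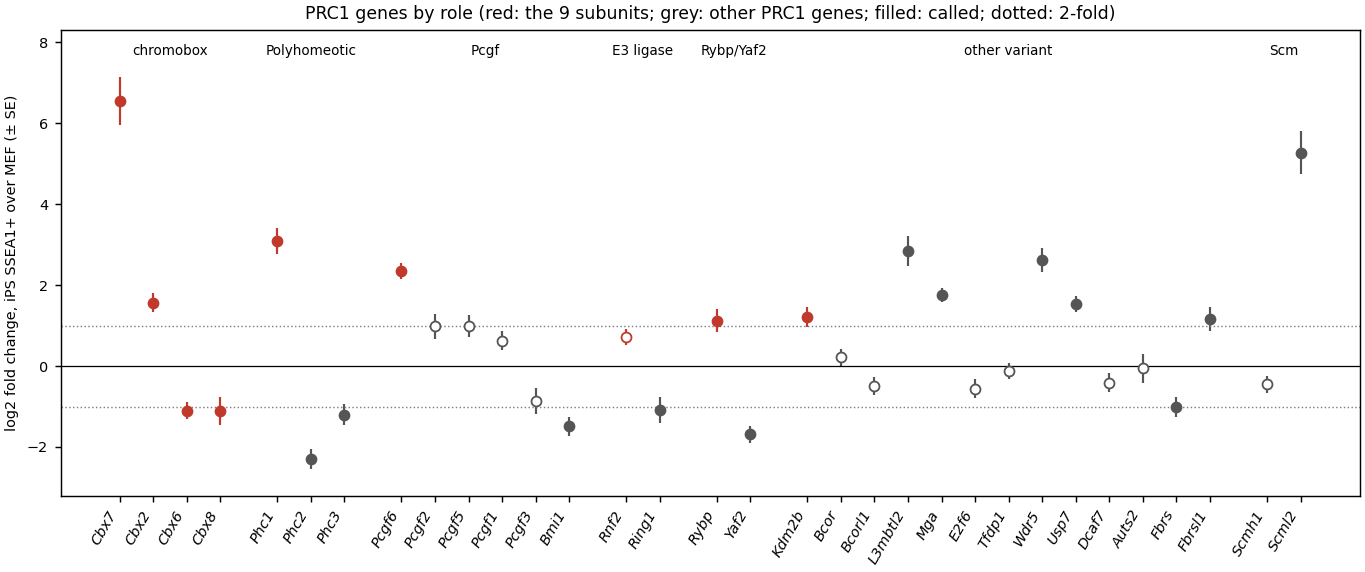
Log2 fold change of SSEA1+ iPS cells over MEFs with its SE, for the 9 subunits (red) and other PRC1 genes (grey) grouped by role; filled points were called and dotted lines mark 2-fold. Within the Polyhomeotic group Phc1 lies at 3.08 and Phc2 at -2.30, and in the Rybp/Yaf2 pair Rybp lies at 1.12 and Yaf2 at -1.68.

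Of 7 other canonical PRC1 genes 1 was higher and 4 were lower in SSEA1+ iPS cells than in MEFs, with a median of -1.08 against 0.22 for all genes, of which 27.9% were called higher and 22.5% lower. Phc2 fell to 41.4, 28.9 and 43.1 CPM in SSEA1+ iPS cells, against 200, 183 and 175 CPM in MEFs (-2.30 ± 0.24, adjusted p = 1e-08), whereas Phc1 was higher. Bmi1, a Pcgf protein of canonical PRC1, was lower (-1.49 ± 0.23, adjusted p = 5.3e-06), and so was Phc3 (-1.20 ± 0.26, adjusted p = 0.00022), another Polyhomeotic gene. The gene that was higher was Scml2, which encodes a Scm-type partner, at 69.6, 69.5 and 58.7 CPM in SSEA1+ iPS cells and 2.44, 1.02 and 1.53 CPM in MEFs (5.27 ± 0.53, adjusted p = 5.5e-09).

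Of 16 other variant PRC1 genes, 5 were higher and 2 were lower in SSEA1+ iPS cells than in MEFs, with a median of 0.08, and the same shares of all genes called, 27.9% and 22.5%, apply. The 4 with the smallest p were Mga (1.76 ± 0.18), which encodes the E-box binding partner of Pcgf6, the WD-repeat gene Wdr5 (2.62 ± 0.29), Yaf2 (-1.68 ± 0.21) and L3mbtl2 (2.85 ± 0.37). L3mbtl2, a subunit of the Pcgf6 complex, had 98.9, 102 and 148 CPM in SSEA1+ iPS cells and 18.5, 14.5 and 15.6 CPM in MEFs, with a wide gap. Yaf2, the alternative to Rybp, had 12.4, 8.52 and 12 CPM in SSEA1+ iPS cells and 33.2, 40.4 and 32.0 CPM in MEFs, a difference of the sign opposite to that of Rybp. L3mbtl2 overlaps Chadl, a gene on the opposite strand.

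Between the fractions at day 12, 2 of the 7 other canonical genes were higher and 1 lower in SSEA1+ cells (median -0.17 against 0.06 for all genes), and 5 of the 16 other variant genes were higher and 2 lower (median 0.35). Of all genes, 18% were higher and 18% lower in that sort. Scml2 (2.32 ± 0.46) and Pcgf2 (1.26 ± 0.30), a canonical Pcgf protein, were higher, and Phc3 (-1.08 ± 0.25) was lower. Among the variant genes Wdr5 (2.00 ± 0.28), Mga (1.18 ± 0.17) and L3mbtl2 (2.25 ± 0.35) were higher and Yaf2 (-1.29 ± 0.20) was lower. At the iPS stage 1 canonical gene was higher and 2 were lower (median -0.77), and 5 variant genes were higher and 1 lower (median 0.35), where 16% of all genes were higher and 21.3% lower. At day 3, with 6.67% of all genes called, 0 of the 7 canonical genes were called by edgeR, and 2 of the 16 variant genes, Auts2 (1.46 ± 0.36) and its relative Fbrsl1 (1.32 ± 0.31), were higher in SSEA1+ cells.

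Markers of pluripotency, of fibroblasts, of proliferation and of further cell types moved with the sort. Of 10 pluripotency genes 0 were called at day 3. In SSEA1+ cells 4 were higher at day 6, 9 at day 9, 10 at day 12 and 9 at the iPS stage. The share of all genes higher there was 6.31%, 11.5%, 18% and 16% in that order. Some endoderm and macrophage genes were lower in SSEA1+ cells from day 6 on. At day 12 the 10 fibroblast genes summed to 180 to 335 CPM in SSEA1+ cells and 4890 to 11900 CPM in SSEA1- cells, and the 10 proliferation genes to 2890 to 3990 CPM in SSEA1+ cells and 790 to 1030 CPM in SSEA1- cells. At day 3 the fibroblast genes summed to 1550 to 2230 CPM in SSEA1+ cells and 3770 to 7330 CPM in SSEA1- cells. In the iPS sort, where 16% of all genes were higher and 21.3% lower in SSEA1+ cells, 4 of 7 endoderm genes were lower. Their summed levels were 15 to 25.5 CPM in SSEA1+ and 119 to 517 CPM in SSEA1- cells. Likewise 5 of 7 keratinocyte genes were lower, although their sums overlapped (53.5 to 126 CPM in SSEA1+ and 50.8 to 139 CPM in SSEA1- cells), as were 4 of 7 macrophage genes, with 1 higher (34.7 to 102 CPM in SSEA1+ and 19.3 to 525 CPM in SSEA1- cells). The part of these markers in the differences of the PRC1 subunits was not tested. Without replicate 2 of MEFs and of every SSEA1- group, the libraries with the highest macrophage marker levels, the same number of subunits was called in 18 of the 21 comparisons, and 5 were called in the sorts of day 12 and of the iPS stage and 2 for the change of the sort difference from day 3 to day 12.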

How the data were processed

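Counts of reads per Ensembl gene, 1 file per library, were used as deposited by the authors, and no column of per-sample values was left unused (0). Poly-A libraries were made with the NEBNext Ultra Directional kit from FACS-sorted cells, per the labels' protocols. Per the submitters' processing notes, the build was mm9 and HTSeq 0.6.0, Picard 1.100 and STAR 2.3.0 were used, in roles not stated; the sources used here do not name an annotation release. Of 37583 IDs, 32860 had a symbol in the reference annotation (GENCODE M21, another build), which gave names, chromosome, strand, overlaps, GC content and transcript lengths only. Reads in no gene were 4.42 to 15.51% and ambiguous reads 2.41 to 3.15% of the sum of gene, no-gene and ambiguous reads, and both stayed out of library sizes.

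Counts were normalised by TMM, filtered with filterByExpr and fitted with edgeR 4.0.16 (R 4.3.3, quasi-likelihood, robust) with 1 mean per group, 33 libraries and 22 residual degrees of freedom, and p-values were adjusted by Benjamini-Hochberg over 17326 genes. Limits from a count of 0 cover counting error only. Groups and their replicate numbers are those of the labels. No label says that the numbers pair libraries, but same-numbered libraries deviated together (each r above 0.1) in several comparisons. These were the sorts of days 3 to 12 (r of 0.18 to 0.56) and the SSEA1+ steps from day 3 to day 12 (0.10 to 0.63). The same held for SSEA1+ cells against MEFs at days 3, 6 and 12 (0.11 to 0.23), but not for the other comparisons checked. At the step from day 9 to day 12, however, same-numbered r were 0.10 to 0.31 and differently numbered libraries reached 0.24, so pairing is not shown there. The fit with the number as a block is given beside the results whose call it changed. Alternatives were RLE and upper-quartile factors, no filter on low counts, a replicate block, removal of the GC trend, the compared groups only, no fold minimum, DESeq2 1.42.0, and each library left out. All 9 subunits were named in every comparison, and of the other PRC1 lists up to 4 called genes with the smallest p in the comparisons described; 1 further gene is not reported here and stays out of these lists and shares. The subunits and lists were chosen with earlier results of these data known. Sequences were read from RefSeq promoters (GRCm38.p6).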

Additional observations from a re-analysis of the deposited data

Results flagged for a closer look

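The difference between SSEA1+ and SSEA1- cells itself differed between day 12 and day 3 for 3 of the 9 PRC1 subunits. It did so for 17.7% of all genes, both at an adjusted p under 0.05 by edgeR's quasi-likelihood test of the difference of differences. The shift in log2 fold change was 1.09 for Pcgf6 (adjusted p = 0.0057), whose difference of SSEA1+ from SSEA1- cells was 1.06 at day 12 and -0.04 at day 3. It was -0.94 for Cbx6 (adjusted p = 0.026) and -1.35 for Cbx8 (adjusted p = 0.049), whose differences were -0.64 and -1.29 at day 12 and 0.30 and 0.06 at day 3. The Cbx6 and Cbx8 shifts lost their call when some single libraries were left out, such as SSEA1+ day 12 replicate 1 (-0.79 for Cbx6 and -1.03 for Cbx8). The Cbx8 shift also lost it with no filter on low counts (adjusted p = 0.083) and with the compared groups only (adjusted p = 0.14).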

How the results depend on the processing

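Of the 59 calls of a subunit in a comparison, 43 held under every alternative and with every library left out, and 0 reversed. Most of the calls that did not hold were between the fractions. In the sorts every Phc1 call held, and no Cbx2, Cbx8, Pcgf6 or Rybp call did. The calls lost against MEFs were those of Cbx6, Cbx8, Rybp and Kdm2b in SSEA1+ iPS cells. For the change of the sort difference the Pcgf6 call alone held. With all libraries kept, the number of subunits called moved by over 1.5 times in these cases: to 1 in the day 3 sort with the GC trend removed, also with the replicate block, to 3 in the iPS sort with the compared groups only, to 4 in SSEA1- cells against MEFs at day 6 and at the iPS stage with no fold minimum, and to 5 for the change of the sort difference from day 3 to day 12 with the GC trend removed and the replicate block. Where a call changed, the cause was not tested.

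With 1 library left out at a time, the number called was 2 to 4 in the day 3 sort, 3 to 4 at day 6, 3 to 5 at day 9, 3 to 6 at day 12 and 4 to 6 at the iPS stage. Against MEFs it was 4 in SSEA1+ cells of days 3, 6 and 9, 5 to 6 at day 12 and 6 to 8 at the iPS stage, and 2 to 3 in SSEA1- cells of days 3 and 6 and the iPS stage and 2 at days 9 and 12. It was 0 for the SSEA1+ steps except 0 to 1 at day 12 against day 9, 1 to 4 for the change of the sort difference from day 3 to day 12 and 0 from day 12 to the iPS stage. Moves of over 1.5 times came without SSEA1+ day 3 replicate 1 (to 4 in the day 3 sort), without SSEA1+ day 12 replicate 1 (to 3 in the day 12 sort), without SSEA1+ day 12 replicate 3 (to 1 at the step from day 9) and, for the change from day 3 to day 12 (to 1 each), without SSEA1- day 3 replicate 1, SSEA1- day 12 replicate 3, SSEA1+ day 3 replicate 3 or SSEA1+ day 12 replicate 1. The number of all genes called moved in some fits too. For the change from day 3 to day 12 it was 1747 without SSEA1+ day 12 replicate 1, against 3069 with all libraries. In the day 3 sort it was 689 without SSEA1- replicate 2 and 531 without SSEA1+ replicate 3, against 1155. No share of all genes is given for the other fits, so their counts of subunits cannot be judged against one.

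With the replicate number as a block, 3 subunits were called in the day 3 sort (Cbx7 added) and 4 for the change of the sort difference from day 3 to day 12 (Phc1 added), and the number was that without the block in the other comparisons: 3, 4, 6 and 6 in the later sorts. Upper-quartile factors moved the median log2 fold change of all genes in SSEA1+ iPS cells against MEFs to 0.33, against 0.22 with TMM, and Cbx6 and Cbx8 then stood at -1 each, just short of the 2-fold minimum. Cbx shares rested on transcript length: 37 of 44 mean shares moved by at least 1 SD of the replicates with the longest in place of the median transcript. Cbx8 in all groups and Cbx7 in MEFs rest on few counts, and 3 libraries per group limit every value.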

Other observations

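For each subunit the genes whose 11 group means of log2 CPM were most like its own, by Pearson's r, are given as a description. The 11263 genes compared had a highest group mean of 10 CPM or more. Genes without a symbol, predicted genes, clone-named genes and the 9 subunits were left out. Groups share stages and sort fractions, so such correlations are common. Lmtk2 (0.995) was nearest to Phc1, Hinfp (0.994) to Kdm2b, Rnf31 (0.989) to Rybp and Zfp566 (0.984) to Pcgf6. Hsd17b14 and Mapkapk3 (both 0.988) were nearest to Cbx7, and Mapkapk3 was also second for Pcgf6 (0.984). Yes1 (0.977) was nearest to Rnf2, Cntrl (0.973) to Cbx2 and Lrrc45 (0.966) to Cbx6. Thra (0.960) was nearest to Cbx8. Among the 9 subunits themselves the highest r was 0.97, between Cbx7 and Pcgf6, and the lowest -0.93, between Cbx6 and Rnf2.

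Of 9 genes of H2A deubiquitinases and their partners, which remove the mark that PRC1 places, 0 were higher and 1, Foxk1 (-1.45 ± 0.18, adjusted p = 1.2e-07 by edgeR), was lower in SSEA1+ iPS cells than in MEFs, where 27.9% of all genes were higher and 22.5% lower. Between the fractions at day 12, 1 of the 9 was higher in SSEA1+ cells, Hcfc1 (1.64 ± 0.21, adjusted p = 2e-06), where 18% of all genes were higher and 18% lower.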
